A study of Mus musculus with 9 samples.

Results

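The genes described here are 9 regulators and surface markers of blood stem cells and multipotent progenitors, Prom1, Hlf, Cd34, Erg, Meis1, Mecom, Sox4, Lmo2 and Mycn. All probe sets that the platform annotation gave to these symbols alone were taken, which were 24 of the 45037 probe sets on the array that were not controls. A probe set is a group of short probes for 1 transcript, and its signal is the brightness summarised over them. Of the 24, 16 passed the filter on low signals and were tested, against 27022 of the 45037, and they stood for 8 of the 9 genes. Mecom had 3 probe sets and none of them passed.

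RNA was measured on 9 expression arrays, each from 1 sorted sample of EYFP-positive granulocyte-macrophage progenitors (GMPs), the bone marrow cells that give rise to neutrophils and monocytes. Dicer1 encodes the enzyme that trims hairpin precursors to mature microRNAs. The study asked how losing 1 or both copies of it changes the expression profile of these cells.

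The 3 groups, with 3 arrays each, are labelled Dicer null (floxed Dicer1 on both alleles, called null here), Dicer heterozygous deletion (1 floxed allele deleted, het) and Dicer wild type (wt). Every sample, wt included, is given the donor background Cebpa-Cre;R26-LSL-Eyfp, in which Cre is driven from Cebpa, a gene switched on in myeloid progenitors, and EYFP marks cells where Cre has acted. Donor cells were fetal liver cells of embryonic day 13.5. They were injected into C57BL/6 recipients aged 6 to 8 weeks that had been irradiated with 8.5 Gy, and marrow was taken 6 to 10 weeks later. A liver typically went to 2 recipients, and nothing states that the 3 samples of a group came from separate livers. Each p-value is thus set by how far these particular samples varied, which may include technical variation.

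Stem and multipotent cells hold their state through transcription factors that bind together at shared enhancers, among them ERG, the LMO2 complex and MEIS1 with its HOX partners. As cells commit to the granulocyte and monocyte fates, many of these genes are turned down. Dicer-made microRNAs lower the stability and translation of messenger RNAs that pair with their seed. In sorted populations, fewer cells that carry a transcript and less of it per cell cannot be told apart.

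The promoters of the 3 genes with a called difference are shown first, so that the sequence at their start sites stands beside the values. They run from 250 bases before to 50 after a RefSeq start (GRCm38.p6, minus strand in each case, written 5′ to 3′ along the gene), and capitals mark a match to any of 6 motifs. Prom1 start 1 is chr5:44101687-44101986, Prom1 start 2 is chr5:44094719-44095018, Hlf is chr11:90390868-90391167 and Mycn is chr12:12941787-12942086.
Prom1 start 1: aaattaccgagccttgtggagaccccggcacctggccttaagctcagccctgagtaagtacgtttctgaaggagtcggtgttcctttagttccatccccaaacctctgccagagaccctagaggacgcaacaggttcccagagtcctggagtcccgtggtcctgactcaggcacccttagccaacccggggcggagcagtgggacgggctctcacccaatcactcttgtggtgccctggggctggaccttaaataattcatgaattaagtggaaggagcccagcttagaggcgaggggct
Prom1 start 2: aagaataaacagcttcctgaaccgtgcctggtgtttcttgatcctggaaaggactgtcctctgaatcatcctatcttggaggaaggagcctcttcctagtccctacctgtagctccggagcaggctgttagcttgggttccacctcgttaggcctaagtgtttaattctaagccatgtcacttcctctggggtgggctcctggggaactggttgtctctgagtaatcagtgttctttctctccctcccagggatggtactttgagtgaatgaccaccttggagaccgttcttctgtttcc
Hlf: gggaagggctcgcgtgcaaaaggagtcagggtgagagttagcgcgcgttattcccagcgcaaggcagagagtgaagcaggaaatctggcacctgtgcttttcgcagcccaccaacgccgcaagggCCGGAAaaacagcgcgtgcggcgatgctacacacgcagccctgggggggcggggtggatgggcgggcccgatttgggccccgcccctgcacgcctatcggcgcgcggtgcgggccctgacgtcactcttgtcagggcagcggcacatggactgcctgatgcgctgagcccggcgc
Mycn: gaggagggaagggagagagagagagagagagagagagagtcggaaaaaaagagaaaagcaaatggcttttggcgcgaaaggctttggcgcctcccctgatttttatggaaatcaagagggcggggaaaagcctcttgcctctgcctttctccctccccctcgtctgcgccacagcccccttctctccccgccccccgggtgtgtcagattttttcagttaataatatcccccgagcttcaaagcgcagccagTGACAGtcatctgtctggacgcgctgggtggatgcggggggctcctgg

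The motifs, searched on both strands, were CCGGAA for ETS factors, GATAAG for factors such as Gata1 and Gata2, CACGTG for MYC proteins, CAGCTG for the TAL1 family, TGACAG for MEIS proteins and ACAAAG for SOX proteins. Neither Prom1 start held any of them. The Hlf promoter held CCGGAA at position -125 from its start, a motif present in 14.898% of 32851 mouse promoters of this length, and it had 30 CpG dinucleotides and 67.3% G and C, against medians of 7 and 52.7% over all promoters. The Mycn promoter held TGACAG at position 3 after its start, a motif of 19.177% of promoters, and 14 CpG dinucleotides. The promoter table held 8 of the 9 members, and Lmo2 is named only. A match is a description of the letters and not of a bound site.

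Before the results, the labels were checked on the arrays. Dicer1 probe set 1460571_at averaged 105 ± 9.46 in null, 185 ± 16.1 in het and 232 ± 11.1 in wt (SD, n = 3 each), with no overlap between groups, and the log2 difference of null minus wt was -1.07 (limma adjusted p = 3.58e-05). Its het minus wt difference, -0.31, did not pass (limma adjusted p = 0.261), while null minus het, -0.76, did (0.000823). The second probe set, 1427941_at, was at -1.12 in null minus wt (limma adjusted p = 7.38e-05). There het minus wt, -0.72, passed (0.00973) and null minus het, -0.41, did not (0.0557). Whether the probes of either set lie in the deleted part is unknown here. GMP and promyelocyte markers were bright on every array, with a summed signal of 11 genes of 31306 to 33750 in null, 30573 to 35471 in het and 30174 to 33907 in wt. Among them Fcgr2b and Fcgr3, whose products are the CD16/32 antigens usually used to sort mouse GMPs, were higher in null minus wt by 0.64 and 0.37 on the log2 scale, and the receptor gene Csf3r was lower, at -0.38. All samples are labelled female, but Xist was 16.4 to 30.2 and the Y-linked Eif2s3y 622 to 859 on 8 arrays, while wt replicate 2 had 2610 and 1.13. That array also stood apart in single markers of several cell types. Erythroid Car1 was 631 on it, against 81.7 and 74.8 on wt replicates 1 and 3, while Epor and Tfrc were not highest there. Among megakaryocyte genes Pf4 was 189, against 29.7 and 25.2, while Gp9 had its lowest wt value there, at 6.15. In the same order Fcer1a was 453, against 106 and 172, and Ngp 784, against 328 and 316. Ccr2 was low, at 640, against 1389 and 1587. The 7 erythroid genes summed to 1138 to 1329 in null, 1184 to 1513 in het and 926 to 2334 in wt, and the 6 megakaryocyte genes to 94.5 to 132 in null, 93.7 to 117 in het and 110 to 290 in wt, with wt replicate 2 highest in both. It was the highest wt array for 9 of the 16 tested member probe sets, against 34.7% of all tested probe sets. Values without it, a setting chosen after seeing the data for the genes that are no members, are given beside some of the results it touches. The null minus wt calls of Fcgr3 and Csf3r did not pass without it (limma adjusted p = 0.0552 and 0.0722), while Fcgr2b passed, at 0.60 in null minus wt. A control on the array set the het samples apart instead. The 5′ probe set for 18S ribosomal RNA averaged 1553 in null, 2746 in het and 1314 in wt.

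Prom1 was higher in null GMPs than in both other groups. The 2 Hlf probe sets passed in 1 null comparison each, Mycn passed in null minus het alone, where het was low, and the other 5 tested genes did not pass. In null minus wt, 2 of 16 probe sets were called higher and 0 lower at an adjusted p under 0.05, where 11.2% of all probe sets were called, 5.05% higher and 6.18% lower. The median log2 difference of the 16 was -0.06, and that of all tested probe sets was -0.06. The sign of the members' median was not stable: it was 0.05 without wt replicate 2, 0.01 without null replicate 1, and 0.04 with quantile normalization or cyclic loess. In het minus wt, 0 of 16 were called by limma, where 1.03% of all were, and 2 of 16 had an unadjusted p under 0.05, against 11.7% of all. The median there was -0.21, against -0.01 for all probe sets, and -0.11 without wt replicate 2. In null minus het, 3 of 16 were called higher and 0 lower, where 9.16% of all were called, 4.41% higher and 4.75% lower, and the median was 0.16, against -0.05 for all. Groups that did not overlap were counted too. In null minus wt, 2 of the 16 had every null array above every wt array and 1 had them below, where 11.5% and 18.5% of all probe sets did. In het minus wt the counts were 0 and 3, where 7.84% and 9.35% of all did, and in null minus het 5 and 1, where 11.8% and 16.4% did. These comparisons share arrays, so a called pair of null differences is not 2 separate observations. With 3 arrays against 3, an exact permutation test of a single probe set could not give a p under 0.1.

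**Figure D1:**
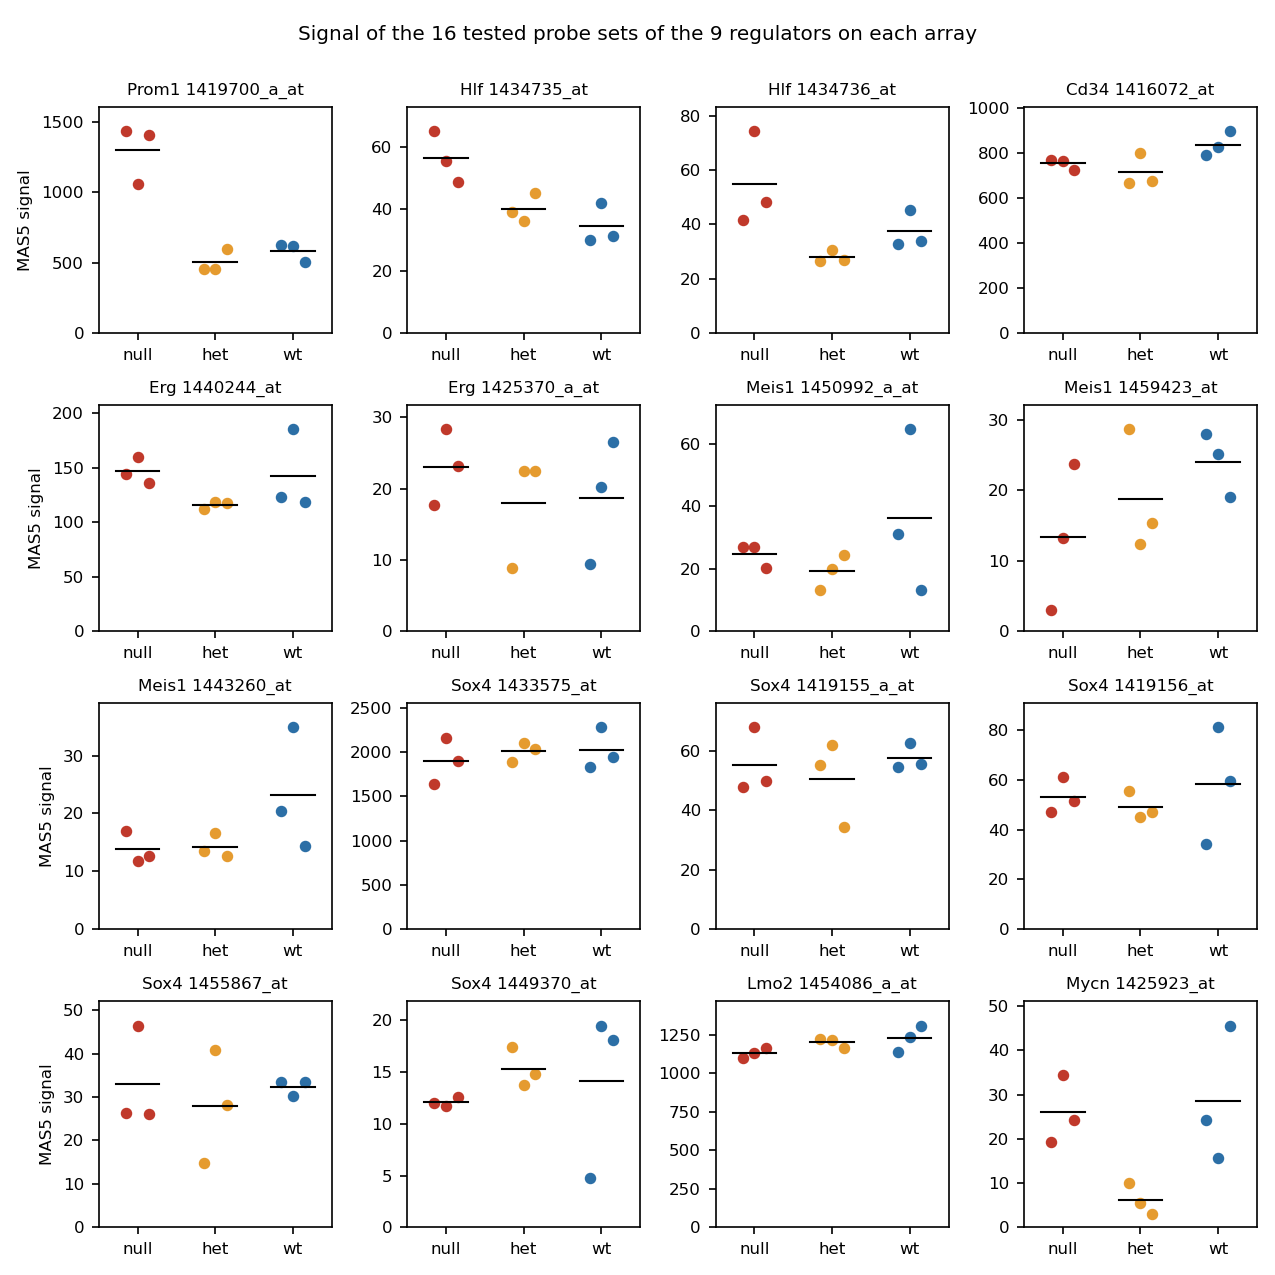
MAS5 signal (linear axis from 0, own scale per panel) of each tested probe set on the 9 arrays, in null, het and wt; points are arrays and the bar is the group mean. The 3 null arrays of Prom1, at 1059 to 1435, lie above all het and wt arrays, while the Sox4 and Lmo2 panels show overlapping groups or differences within the arrays' spread.

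Prom1 encodes prominin-1 (CD133), a glycoprotein of membrane protrusions that is used to isolate stem and progenitor cells. Its probe set 1419700_a_at gave 1435, 1059 and 1407 in null, 454, 454 and 599 in het, and 625, 619 and 506 in wt. The lowest null array stood well above the highest of the other 6, and het and wt overlapped. On the log2(signal + 12) scale, which understates changes of dim probe sets, null minus wt was 1.13 (SE 0.14, 95% interval 0.84 to 1.42), a 2.19-fold change with a limma adjusted p of 0.000148. Null minus het was 1.35 (SE 0.14, 95% interval 1.06 to 1.64), 2.55-fold, with a limma adjusted p of 6.15e-05. Het minus wt was -0.22 (95% interval -0.51 to 0.07), which did not pass (limma adjusted p = 0.591). Without wt replicate 2 the null minus wt difference was 1.18 (limma adjusted p = 0.000369), and over all 21 alternative settings it was 1.04 to 1.27.

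Hlf encodes a bZIP transcription factor of the PAR family that is found in stem cells and falls as they differentiate. It had 2 tested probe sets, each called higher in null GMPs in 1 comparison, but not in the same one. Probe set 1434735_at gave 65.0, 55.3 and 48.7 in null, 38.8, 36.2 and 45.0 in het, and 30.0, 41.8 and 31.3 in wt. All null arrays exceeded all others, by a small margin over the highest het array. Null minus wt was 0.56 (SE 0.16, 95% interval 0.22 to 0.90, limma adjusted p = 0.0344), and null minus het was 0.39 (95% interval 0.05 to 0.73), which did not pass (limma adjusted p = 0.151). Probe set 1434736_at gave 41.6, 74.3 and 48.2 in null, 26.6, 30.4 and 27.1 in het, and 32.6, 45.4 and 34.0 in wt. Here null overlapped wt, through wt replicate 2, and het lay below both. Null minus het was 0.71 (SE 0.19, 95% interval 0.31 to 1.11, limma adjusted p = 0.0289), null minus wt was 0.41 (limma adjusted p = 0.177), or 0.53 without wt replicate 2 (0.137), and het minus wt was -0.29 (limma adjusted p = 0.594). The part of the 18S signal, which set het apart too, in the low het values was not tested.

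These 2 calls rest on few arrays. The null minus wt call of 1434735_at was lost without null replicate 1 (limma adjusted p = 0.121), without null replicate 2 (0.0729), without wt replicate 1 (0.108) and without wt replicate 3 (0.106), and kept without wt replicate 2, where the difference was 0.67 (0.0270). The null minus het call of 1434736_at was lost without null replicate 2, null replicate 3, or any of the 3 het replicates, with a limma adjusted p of up to 0.107. With the signals of both probe sets averaged on the log2 scale, a setting chosen after seeing the data, Hlf was higher by 0.49 in null minus wt (limma adjusted p = 0.0312) and by 0.55 in null minus het (0.0196), and het minus wt was -0.06.

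Mycn is a MYC family transcription factor of early progenitors, close kin to Myc. Its only tested probe set, 1425923_at, gave 19.3, 34.4 and 24.3 in null, 10.1, 5.41 and 2.95 in het, and 24.3, 15.7 and 45.6 in wt. Null and wt overlapped throughout, and het was below every other array. Null minus het was 1.07 (SE 0.26, 95% interval 0.50 to 1.63, limma adjusted p = 0.0219). Het minus wt was -1.11 (95% interval -1.68 to -0.55), with an unadjusted p of 0.000876 that did not pass (limma adjusted p = 0.0682), and null minus wt was -0.05 (0.941). Without wt replicate 2, het minus wt was -1.35 and passed (limma adjusted p = 0.0282), as it did with arrays weighted by quality, at -1.20 (0.0306). The het mean, 6.15, was below the filter signal of 9.01, so the sizes depend on the constant added before log2: over the settings, null minus het lay between 0.60 and 1.59. That call was lost without null replicate 2, null replicate 3, het replicate 2 or het replicate 3, with limma adjusted p of 0.0596 to 0.081. The 18S control also set het apart, and its part in the Mycn values was not tested. The other Mycn probe sets, 1425922_a_at and 1417155_at, were too dim to test, between 0.544 and 15.8 on all arrays.

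**Figure D2:**
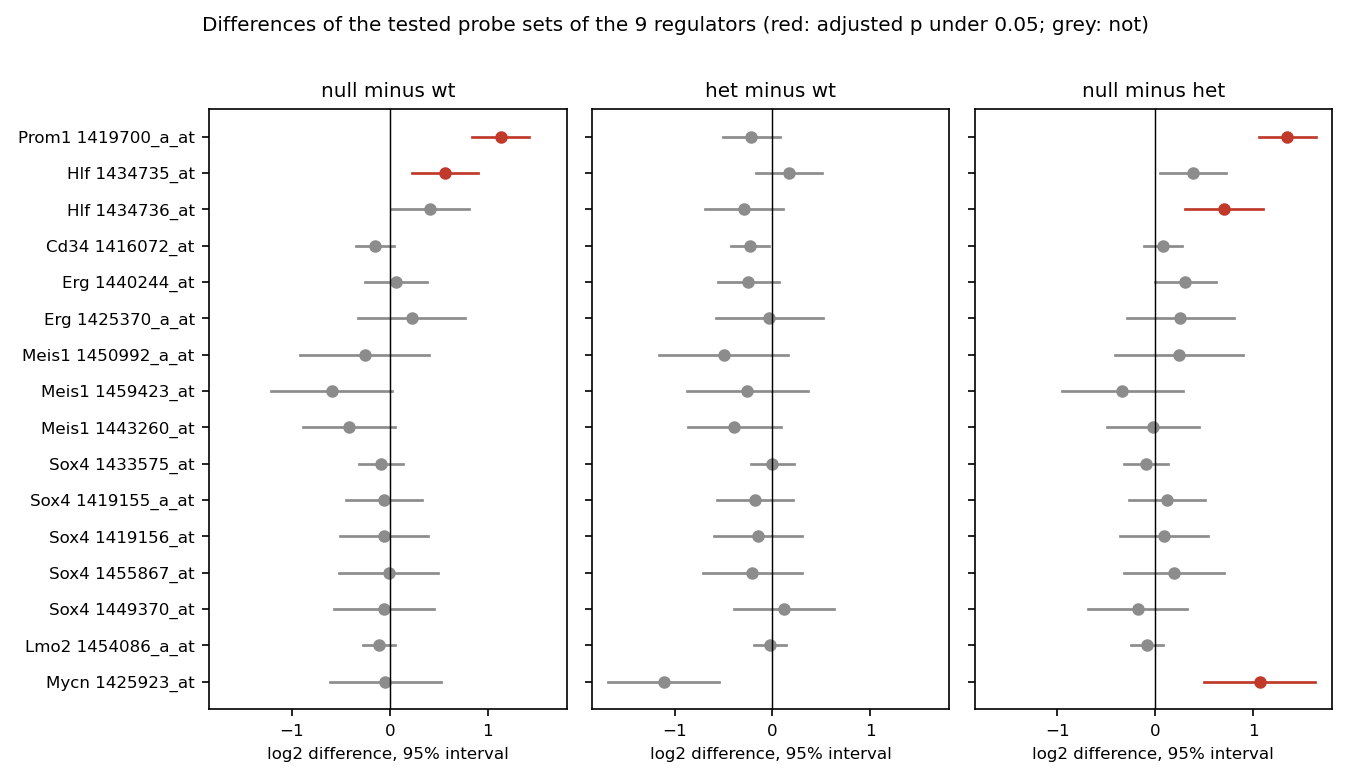
Log2 difference, log2(signal + 12), of each tested probe set in null minus wt, het minus wt and null minus het, with 95% intervals on a shared axis; red marks an adjusted p under 0.05. Prom1 and Hlf 1434735_at are red in null minus wt, none in het minus wt, and Prom1, Hlf 1434736_at and Mycn in null minus het.

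Cd34 encodes a sialomucin of stem and progenitor cells that is itself among the antigens usually used to sort mouse GMPs. The gate is not given in the sources used here, so Cd34 may have helped to choose these cells. Probe set 1416072_at gave 769, 766 and 726 in null, 666, 801 and 676 in het, and 791, 825 and 897 in wt. All null arrays were below all wt arrays by a narrow margin, and het spanned null. The difference of null minus wt was -0.15 (95% interval -0.34 to 0.04, limma adjusted p = 0.332), and het minus wt was -0.23 (95% interval -0.42 to -0.04, unadjusted p = 0.0234), which did not pass after adjustment (limma adjusted p = 0.327). Null arrays entirely below wt arrays were found in 18.5% of all tested probe sets, so such a separation was common.

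Erg encodes an ETS transcription factor required in stem cells and megakaryocyte progenitors. Probe set 1440244_at gave 144, 160 and 136 in null, 112, 119 and 117 in het, and 123, 185 and 119 in wt. Every het array lay below every null array and, by a narrow margin, every wt array, and wt replicate 2 was highest of all 9. The part of the 18S signal in these het values was likewise not tested. Null minus het was 0.31 with an unadjusted p of 0.0525, which did not pass (limma adjusted p = 0.223), and null minus wt was 0.06, or 0.25 without wt replicate 2 (limma adjusted p = 0.237). Het minus wt was -0.25, or -0.06 without wt replicate 2 (limma adjusted p = 0.566 and 0.922). The second, dimmer probe set, 1425370_a_at, ranged from 17.8 to 28.3 in null, 8.90 to 22.5 in het and 9.39 to 26.5 in wt, with overlap in every comparison.

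Meis1 encodes a homeodomain factor that binds DNA with PBX and HOX proteins. All 3 of its probe sets were dim. Probe set 1450992_a_at gave 26.8, 27.0 and 20.2 in null, 13.3, 20.0 and 24.5 in het, and 31.2, 64.6 and 13.1 in wt. Of the wt arrays, wt replicate 2 was far above the others, and no comparison separated the groups. The null minus wt difference was -0.26 (95% interval -0.91 to 0.40, limma adjusted p = 0.662), and 0.15 without that array. The other probe sets, 1459423_at and 1443260_at, had null minus wt differences of -0.59 and -0.41 (limma adjusted p = 0.215 and 0.259), or -0.56 and -0.19 without wt replicate 2. The differing marker signals of that array, such as Car1, Pf4 and Fcer1a, lay beside these values, and their part in them was not tested.

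Sox4 is a SOXC transcription factor abundant in early progenitors. Its probe set 1433575_at gave 1639, 2160 and 1899 in null, 1894, 2108 and 2040 in het, and 1834, 2278 and 1949 in wt. The groups overlapped fully. The difference of null minus wt was -0.09 (95% interval -0.31 to 0.13, limma adjusted p = 0.641), and het minus wt was 0.00 (95% interval -0.22 to 0.22). The other 4 tested probe sets had null minus wt differences between -0.06 and -0.01, and none passed in any comparison. Without wt replicate 2, 1419156_at and 1449370_at changed sign, to 0.18 and 0.10 (limma adjusted p = 0.657 and 0.865). The differences of 1419155_a_at and 1455867_at kept theirs, at -0.01 and -0.05. At 1449370_at the null arrays, 11.7 to 12.6, all lay below the het arrays, 13.8 to 17.4, a difference that did not pass (limma adjusted p = 0.72). Of the 3 untested ones, 1458332_x_at gave 8.07, 7.29 and 13.2 in null, 1.72, 2.95 and 6.66 in het, and 1.39, 0.485 and 1.37 in wt. It passed only where no filter was applied, with a null minus wt difference of 0.71 (limma adjusted p = 0.0259), at signals close to or under the filter.

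Lmo2 encodes a LIM-only adaptor that bridges TAL1 or LYL1 and GATA factors. Probe set 1454086_a_at gave 1101, 1133 and 1167 in null, 1224, 1218 and 1162 in het, and 1136, 1233 and 1310 in wt. Its arrays varied little, with a within-group SD of 0.07 on the log2 scale against a median of 0.20 over all tested probe sets. Null minus wt was -0.11 (95% interval -0.27 to 0.05, limma adjusted p = 0.408), and null minus het was -0.08 (95% interval -0.25 to 0.08). Both intervals are narrow beside those of the dim members.

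Mecom encodes a zinc-finger factor with a PR domain in its long form, which keeps stem cells in their state. Its probe set 1422295_at gave 10.4, 10.4 and 2.43 in null, 22.8, 3.79 and 2.03 in het, and 2.57, 1.69 and 1.34 in wt. Probe set 1423011_at ranged from 0.365 to 6.73 and 1438325_at from 0.544 to 5.77 over the 9 arrays. All 3 means were under the filter signal, and without detection calls whether Mecom stood above background is unknown.

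**Figure D3:**
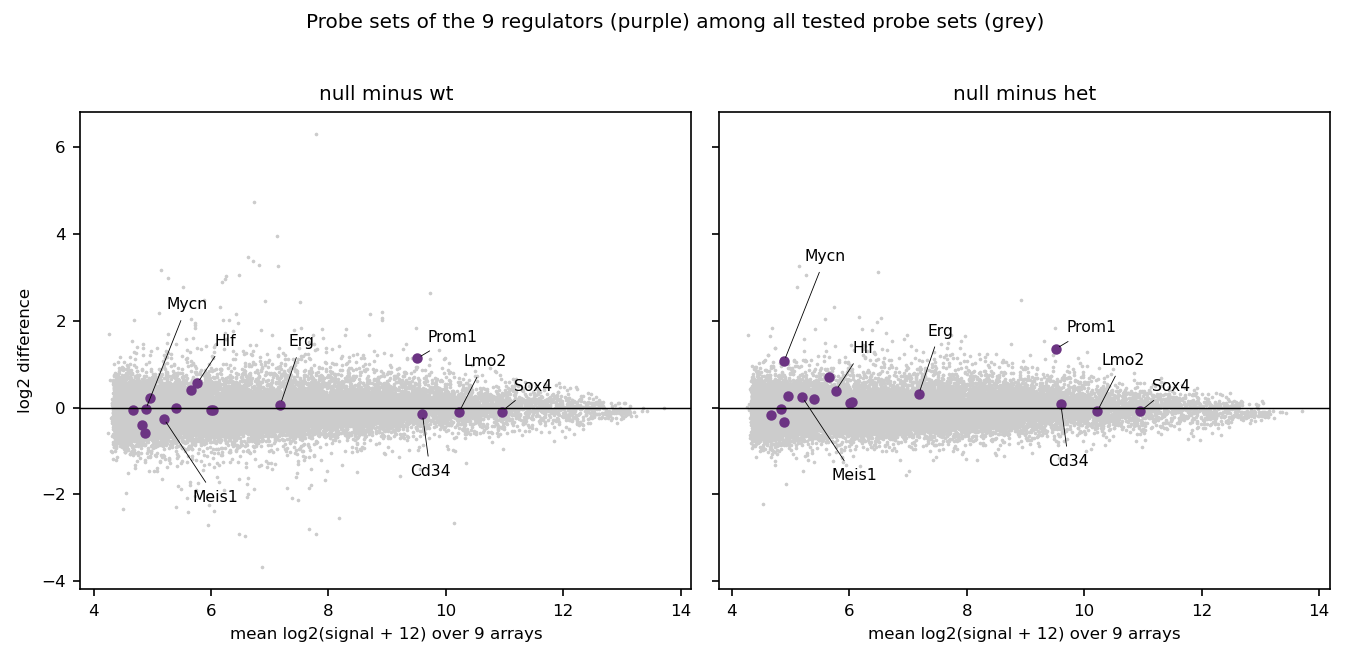
Log2 difference against the mean of log2(signal + 12) over the 9 arrays for all 27022 tested probe sets (grey) and those of the 9 regulators (purple, the brightest per gene named), in null minus wt and null minus het. Prom1 lies at the upper edge of the grey points of its brightness in both panels, at 1.13 and 1.35, and Cd34, Lmo2 and Sox4 lie close to 0.

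To place the members among genes of similar role, 41 other stem and progenitor genes were listed, of which 36 were on the array and 29 tested by their brightest probe set. In null minus wt, 5 were called higher and 2 lower, where 13.5% of 12349 genes were called, 6.6% higher and 6.92% lower. Their median difference was 0.14, against -0.07 for the 8 tested members and -0.04 for all genes. The list was chosen with earlier results of these data known, so its counts and median are a description only. Hmga2, a chromatin protein of fetal stem cells and a described let-7 target, averaged 277 ± 58.6 in null, 110 ± 17.9 in het and 40.1 ± 2.04 in wt (SD, n = 3 each), so the 3 groups stood in that order. Its difference was 2.46 in null minus wt and 1.22 in het minus wt (limma adjusted p = 3.27e-07 and 0.000537). Hoxa9, a HOX partner of MEIS1, averaged 1424 ± 199 in null, 246 ± 51.1 in het and 351 ± 243 in wt, a null minus wt difference of 2.19 (limma adjusted p = 0.00083). Without wt replicate 2 that difference was 2.70 (limma adjusted p = 3.95e-06). A second Hoxa9 probe set did not pass in null minus wt, at 0.53.

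Msi2, an RNA-binding protein of stem cells, rose by 0.87 in null minus wt, but none of its other 7 tested probe sets passed, at -0.11 to 0.33. Without wt replicate 2 the difference of 0.87 became 1.07 (limma adjusted p = 0.00178). Ikzf2 and Hoxa5 rose by 0.60 each (limma adjusted p = 0.0487 and 0.0478), and without wt replicate 2 Ikzf2 passed and Hoxa5 did not (0.0034 and 0.066). Prdm16, a PR-domain relative of Mecom, was lower, averaging 13.4 ± 7.37 in null, 38.8 ± 2.13 in het and 35.2 ± 2.94 in wt (null minus wt -0.94, limma adjusted p = 0.0103). Lyl1, which pairs with LMO2, was lower too, averaging 302 ± 19.1 in null, 410 ± 20.0 in het and 398 ± 29.1 in wt (null minus wt -0.39, limma adjusted p = 0.0162), a call that was not kept without wt replicate 2, at -0.36 (0.0545). In het minus wt, Hmga2 was the 1 of 29 called, where 1.17% of all genes were. There 7 of the 29 had an unadjusted p under 0.05 by limma, against 12.8% of all genes. In null minus het, 4 of the 29 were higher, Hoxa9 by 2.49, Hmga2 by 1.23, Hoxa5 by 0.74 and Bmi1 by 0.43, and 2 lower, Prdm16 at -1.05 and Lyl1 at -0.43, where 12.1% of genes were called, 5.95% higher and 6.13% lower.

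**Figure D4:**
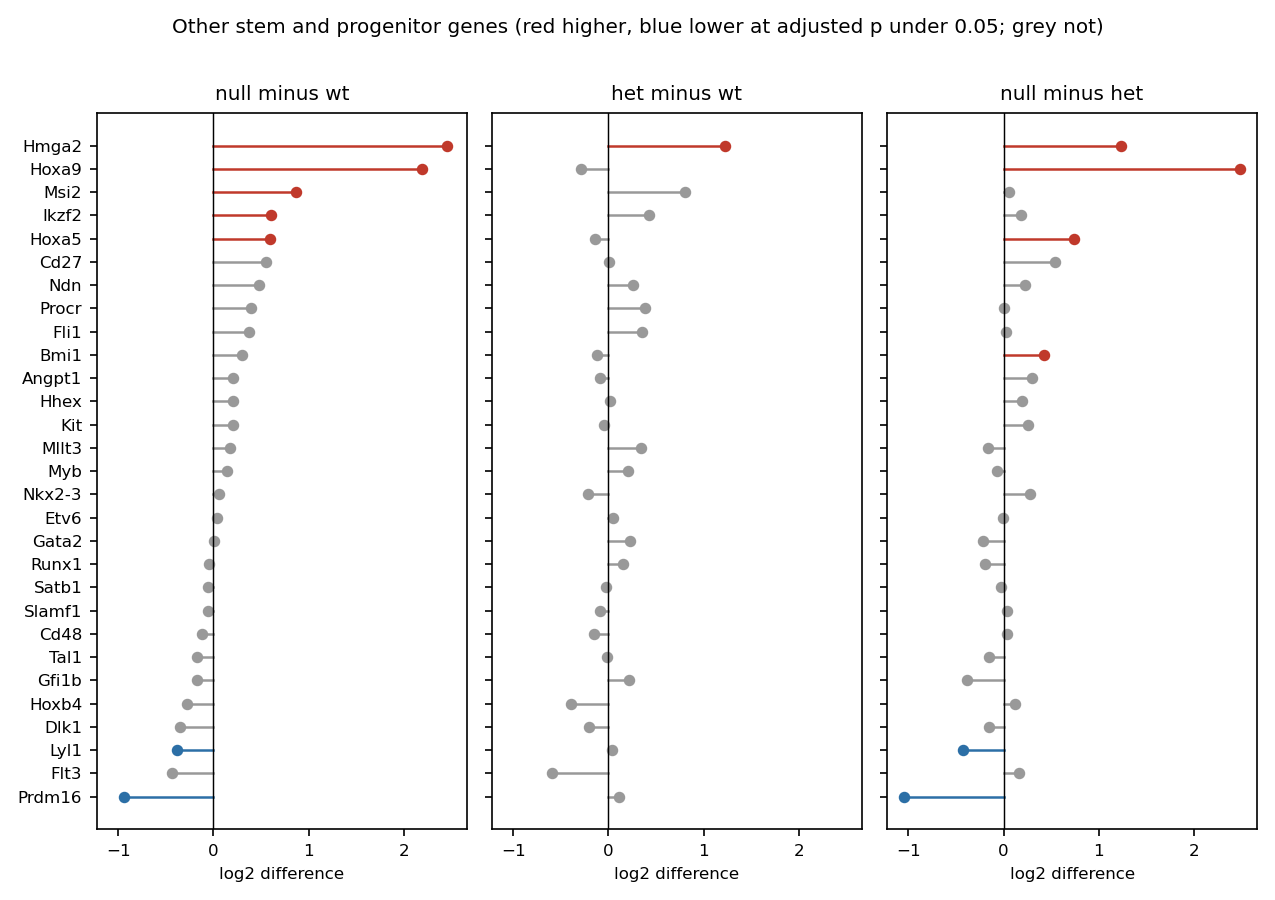
Log2 difference of the 29 tested other stem and progenitor genes in null minus wt, het minus wt and null minus het, ordered by the first; red is higher and blue lower at an adjusted p under 0.05. Hmga2 is red in all 3 panels, and Prdm16 and Lyl1 are blue in both null comparisons.

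Of 45 partners and relatives of the members, 42 were on the array and 33 were tested. Hoxa9, Lyl1 and Prdm16 were also in the list of other stem and progenitor genes, so the counts of both lists share genes. In null minus wt, 2 were higher and 2 lower, with a median of 0.04, where 13.5% of all genes were called, 6.6% higher and 6.92% lower. The higher ones were Hoxa9 and Cbfa2t3, a corepressor in the LMO2 and TAL1 complex that rose by 0.38 (limma adjusted p = 0.0443, and 0.132 without wt replicate 2), and the lower ones Lyl1 and Prdm16. In het minus wt, 0 of 33 were called by limma and 4 had an unadjusted p under 0.05, where 1.17% of all genes were called and 12.8% had such a p. In null minus het, Hoxa9 was higher and Lyl1, Prdm16, Mga (-0.36) and Dbp lower, where 12.1% of all genes were called, 5.95% higher and 6.13% lower. Dbp, which like Hlf encodes a PAR bZIP factor, averaged 49.4 ± 11.6 in null, 80.5 ± 5.50 in het and 67.7 ± 8.57 in wt, opposite in direction to Hlf in null minus het at -0.61 (limma adjusted p = 0.0238). Of the 9 tested genes of the MYC network, limma called 0 in null minus wt, and 1 had an unadjusted p under 0.05, as 28.6% of all genes did. Myc itself averaged 541 ± 24.3 in null, 557 ± 29.8 in het and 544 ± 34.8 in wt.

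The genes most like each member in their signal over the 9 arrays were looked up as a description, since the arrays share 3 genotypes. Prom1 was most like Atp7a (Pearson r = 0.991) and Actn1 (0.984), out of 12341 genes searched. With 9 arrays and so many genes searched, the highest r can be large for genes that are unrelated. Hlf was most like Prdm2 (0.966) and Myadm (0.956), and Mycn most like Neurl1b (0.961) and Cfap221 (0.951). Lmo2 was most like Cebpa (0.943), itself a marker of the GMP list, and Septin1 (0.937), and Cd34 most like Doc2a (0.918) and Fn3k (0.908). For Erg they were Hinfp (0.948) and Muc13 (0.945), for Meis1 Pla2g4c (0.953) and Trap1a (0.941), and for Sox4 Lsamp (0.953) and Kif3a (0.934).

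Markers of other cells that the gate could hold were read beside the members. Mast cell, basophil and eosinophil genes, 8 of 8 tested, summed to 5981 to 8140 in null, 4590 to 5103 in het and 4776 to 7107 in wt, and in null minus wt the eosinophil granule genes Epx and Prg2 were higher by 0.94 and 0.63 on the log2 scale and Fcer1a lower, at -2.25. Without wt replicate 2, Epx and Fcer1a passed at 1.05 and -1.70 and Prg2 did not pass (limma adjusted p = 0.0712). In null minus het Cpa3 and Hdc were higher by 0.56 and 0.44, with a median of 0.50 over the 8 genes, and in het minus wt Fcer1a was lower, at -3.11, or -2.55 without wt replicate 2. Endothelial genes, which also use Cd34, Erg and Lmo2, summed to 125 to 150 in null, 111 to 127 in het and 131 to 156 in wt, and 0 of 5 tested were called by limma in null minus wt, with 1 at an unadjusted p under 0.05. Mature neutrophil genes summed to 2448 to 8848 in null, 2791 to 5064 in het and 4024 to 7494 in wt. Ltf and Ngp, 2 of 9 tested, were lower in null minus wt, at -2.09 and -2.12, or -1.80 and -1.70 without wt replicate 2. The other 7 were not called in null minus wt, and the median over the 9 was -0.29. Lcn2, 1 of the 7, gave 78.3 to 205 in null and 93.4 to 155 in wt. In het minus wt Ltf, Ngp and Lcn2 were lower, at -1.97, -1.86 and -1.78, with a median of -1.07 over the 9, and without wt replicate 2 Ngp did not pass (limma adjusted p = 0.0502). In null minus het Lcn2 was higher by 2.07. The 5 monocyte genes summed to 6104 to 6368 in null, 5897 to 6818 in het and 4495 to 6561 in wt. Among them Cd14 alone was called, higher by 1.14 in null minus wt and by 2.04 in null minus het. In het minus wt Cd14 was lower, at -0.90. Adgre1 was not called and went the other way in het. Its het arrays, 134 to 155, lay above those of null, 82.4 to 117, and of wt, 70.5 to 117. Of the 6 T and NK lymphoid genes on the array only 2, Klrd1 and Nkg7, were bright enough to test. Both were lower in null minus wt, at -0.65 and -0.40, and Klrd1 did not pass without wt replicate 2 (limma adjusted p = 0.153). Klrd1 was close to the filter signal of 9.01, at 5.72 to 13.4 in null and 18.2 to 24.3 in wt. Of the GMP genes, Fcgr2b was higher by 0.72 in null minus het and Csf3r lower, at -0.40. Of the 4 B lymphoid, 6 erythroid and 4 megakaryocyte genes tested, limma called 0 in null minus wt, and 0 had an unadjusted p under 0.05. Beside these and the other marker counts in null minus wt, 13.5% of all genes were called and 28.6% had such a p. In null minus het limma called 0 of these genes too, where 12.1% of all genes were called. Their medians there were -0.10, -0.49 and 0.03, in the order named, against -0.03 for all genes. The part of these cells in the Prom1, Hlf and Mycn values was not tested.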

How the data were processed

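Total RNA of sorted EYFP-positive GMPs was hybridised to 9 Affymetrix arrays, 3 per genotype, with biotin labelling per the labels' protocols. The deposited values are linear signal intensities made with MAS5, per the submitters' processing notes, with version and settings not given in the sources used here. The deposited intensity values have a 2% trimmed mean of 100 on every array, so a shift shared by most transcripts cannot be seen. Detection calls were not used here, and the number of arrays, not depth, limits the precision.

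Of 45101 probe sets, 64 controls were left out. The platform annotation gave 1 symbol to 34945, several to 932 and none to 9160, and 34754 Entrez identifiers matched RefSeq genes of GRCm38.p6. Probe sets with a mean signal at or above the 40th percentile (9.01) were tested. limma 3.58.1 in R 4.3.3 (lmFit, eBayes with an intensity trend) was fitted to log2(signal + 12) with all 9 arrays and 3 groups, two-sided, with Benjamini-Hochberg adjustment over all 27022 probe sets and calls under 0.05. The fit had 6 residual degrees of freedom. For the gene lists, the brightest probe set stood for a gene. The code was tested on simulated data, with changes set in 200 of 27022 probe sets. There 55% to 65% of 2-fold changes and 17% to 24% of 1.5-fold changes were called. A true change of such a size may thus not pass. The data had more called probe sets, 3036 in null minus wt and 2475 in null minus het. The adjustment was then less strict than in the simulation, so these shares need not hold for the null comparisons.

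The members and lists were chosen with earlier results of these data known. Named genes are all members, Dicer1, and from each other list all called genes where there were 8 or fewer, otherwise up to 6 with the smallest p in null minus wt. For likeness, the 2 genes with the highest Pearson r per member were taken. Alternatives were other constants, filters, normalizations, fits, left-out arrays and a replicate block.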

Additional observations from a re-analysis of the deposited data

How the results depend on the processing

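Prom1 kept its calls in null minus wt (log2 difference 1.04 to 1.27) and null minus het (1.27 to 1.49) in all 21 alternatives. Over the 5 called member differences and their 104 settings, 85 stayed past the threshold and 19 did not, none of which changed sign. Beside the left-out arrays, the Hlf 1434735_at call in null minus wt was lost with no filter (limma adjusted p = 0.0743) and with only the 2 groups compared (0.0549). The null minus het calls of Hlf 1434736_at and Mycn were lost with no filter (0.069 and 0.0605) and with no intensity trend (0.0577 and 0.0559). The members called were 1 in null minus wt with only the 2 groups compared, 1 in het minus wt with array weights, and 1 in null minus het with no filter and 1 with no intensity trend. The other stem and progenitor genes called were 4 in null minus wt and 3 in null minus het with no intensity trend, and 2 in het minus wt with array weights, the brightest probe set only, or a replicate block. Partners called were 2 in null minus wt and 2 in null minus het with no intensity trend, and 3 in null minus het with probe sets averaged, a setting chosen after seeing the data. Leaving out 1 array gave 1 to 2, 0 to 1 and 1 to 3 called members in null minus wt, het minus wt and null minus het. It gave 4 to 7, 1 to 2 and 5 to 6 other stem genes, 2 to 4, 0 to 0 and 2 to 5 partners, and 1835 to 3047, 147 to 284 and 1238 to 2619 of all probe sets. The other settings called 1610 to 3455, 121 to 372 and 1153 to 2770 of all probe sets. With quantile normalization or cyclic loess, 10 of 16 member probe sets had a positive null minus wt difference, against 5. The cause of these shifts was not tested. The labels do not tie the replicate numbers to shared animals, so the numbers were not taken to pair the samples. Same-numbered samples deviated with correlations of -0.03 to 0.175. Of the 9 arrays, 7 correlated best with their own number, a hint from the data that some may be paired. Whether same-numbered samples share more than a number is not known. With the replicate block, 2, 0 and 3 member probe sets were called, 9, 2 and 6 other stem genes, 6, 0 and 5 partners and 3455, 334 and 2770 of all. Without the block, 3036, 277 and 2475 of all were called. Low signals limit Mecom, Meis1 and Mycn most.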
